A study of Sus scrofa with 9 samples.

Results

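The SLC25 family holds the carrier proteins that move metabolites, nucleotides and ions across the inner membrane of mitochondria. The genes described here are those whose symbol in the deposited table starts with SLC25A, without 4 of them (3 carriers of the malate-aspartate shuttle and 1 other carrier) that are not described here. This gave 33 of the 23507 genes in the table. Polyadenylated RNA had been sequenced from pig (Sus scrofa) oocytes, labelled wild type, that had reached metaphase II (MII), where a ripe egg pauses until it is fertilised. The first group was heat stress plus L-Asp, called L-Asp from here on, in which oocytes received L-Asp, the usual code for L-aspartic acid, during 24 h at 41.5 °C. The labels list 0.5, 1.0 and 1.5 mmol/L and do not say which of these was sequenced. The second group was heat stress, with the same heat and no L-Asp, and both heated groups returned to 38.5 °C until MII. The third group was control, kept at 38.5 °C. All groups were matured in culture with their cumulus cells. Every group has 3 libraries from 25 oocytes, and neither the split of those oocytes over libraries nor the number of animals is stated.

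An oocyte makes ATP largely in its mitochondria, and the carriers link that matrix to the rest of the cell. ADP/ATP carriers export ATP, the phosphate carrier brings in the phosphate needed to make it, and the carnitine/acylcarnitine carrier admits fatty acids for oxidation. Other carriers supply cofactors such as folate, S-adenosylmethionine and coenzyme A, or the pyrimidine nucleotides from which mitochondrial DNA and RNA are built. The carriers are made in the cytosol and inserted into the inner membrane by a dedicated import route. Their genes are nuclear.

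Libraries held 41693395 to 58361475 counts. The 3 control libraries differed from each other by little more than sampling would give. The squared difference between 2 libraries, divided by what independent counts would give, was 79.45 to 84.9 for pairs of L-Asp libraries, 109 to 119 for pairs of heat stress libraries and 5.19 to 5.22 for pairs of control libraries. Low counts in control piled up at 4 (604 to 657 genes, against 318 to 351 at 3 counts), so 1 fragment may add 4 counts. The control was therefore averaged and counted as 1 sample, without an SD, and 7 libraries entered the tests. The lone control is assumed to vary as the other groups do. No label says that libraries of a group are separate cultures or animals, so the p-values cover the spread among these libraries alone, which may be technical. Levels for comparing groups are CPM, counts scaled to the library's total and by trimmed mean of M values. A library with no count could hold up to 0.229 to 0.284 CPM, the level of 3 fragments of 4 counts each. That floor covers counting error only, and the size of 4 counts per fragment is an assumption in the heated libraries.

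Summed CPM of 14 oocyte markers was 19960 to 23180 with L-Asp and 15970 to 20270 after heat stress, against 31680 to 31930 in control. BTG4 alone made up a large part of these sums, at 7381 ± 2127 CPM with L-Asp and 7318 ± 1687 CPM after heat stress (SD, n = 3 each), against 15790 CPM in control. Of 15 listed, 14 were in the table and 0 of these were at 0 in all libraries. BMP15, a growth factor of the oocyte, measured 2173 ± 494.5 CPM with L-Asp and 2067 ± 584 CPM after heat stress (SD, n = 3 each), against 5171 CPM in control. Not all markers were lower: for heat stress against control, 5 of 14 lay above 0 (50.1% of all tested genes did). The median log2 fold change was -0.23, and 1 was higher and 4 lower at an unadjusted p under 0.05 (edgeR, 0 called). For L-Asp against control 5 lay above 0 (50.5% of all), with a median of -0.22. There 3 were higher and 3 lower at that p (edgeR, 0 called). OOEP, higher at that p in both comparisons, measured 855.1 CPM with L-Asp and 983.4 CPM after heat stress, against 518.7 CPM in control. Summed markers of cumulus and granulosa cells were 1317 to 1351 CPM with L-Asp and 1324 to 1699 CPM after heat stress, against 1292 to 1335 CPM in control. RGS2 alone made up most of these sums, at 862 ± 65.7 CPM with L-Asp and 1075 ± 235 CPM after heat stress (SD, n = 3 each), against 942 CPM in control. Of the 21 in the table, 1 was at 0 in all 9 libraries and 6 in all control libraries. Of the 15 tested, 11 had a log2 fold change above 0 for heat stress against control (50.1% of all tested genes did), with a median of 1.19. At an unadjusted p under 0.05, 4 were higher (edgeR, 0 called), against 3.86% of all tested genes in either direction. For L-Asp against control 11 lay above 0 (50.5% of all), with a median of 0.55. At that p 5 were higher (edgeR, 0 called), against 3.22% of all tested genes in either direction. Among these, the gap junction gene GJA1 measured 4.55 ± 2.75 CPM with L-Asp and 9.16 ± 3.64 CPM after heat stress (SD, n = 3 each), against 0.799 CPM in control. CYP11A1, an enzyme of steroid-making cells of the follicle, measured 3.27 ± 3.94 CPM with L-Asp and 9.16 ± 5.175 CPM after heat stress, against 0.039 CPM in control, below the floor. GJA1 and CYP11A1 had the smallest p of the tested list for heat stress against control. FST lay the other way, at 34.1 ± 2.93 CPM with L-Asp and 32.0 ± 10.0 CPM after heat stress, against 49.3 CPM in control. KITLG lay near control, at 109.6 ± 18.4 and 106 ± 16.4 CPM in these heated groups, against 101.7 CPM. Summed markers of theca and stroma were 8.64 to 10.2 CPM with L-Asp and 4.75 to 9.78 CPM after heat stress, against 11.5 to 12.7 CPM in control. Those of blood and immune cells were at most 5.24 CPM in any library, and those of endothelium lay at 25.9 to 42.5 CPM with L-Asp and 23.6 to 40.6 CPM after heat stress, against 31.5 to 37.9 CPM in control. The part of these shifts in any carrier result was not tested. In bulk RNA, fewer cells of a type cannot be told apart from less RNA per cell, and with oligo(dT) priming a shorter poly(A) tail cannot be told apart from less RNA.

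Most of the RNA of the 33 genes came from a few of them. The abundant gene described as SLC25 member 51, given below, is outside these sums and shares. Compared per length, in the deposited FPKM, SLC25A5, SLC25A30, SLC25A32, SLC25A33 and SLC25A3 together made up 77.3% to 80.3% of the summed FPKM of all 33 genes with L-Asp. Their share was 73.0% to 77.9% after heat stress and 73.6% to 75.0% in control. In CPM averaged over the groups, 4 genes lay at 100 or more, 9 between 10 and 100, 10 between 1 and 10, and 10 below 1. By class, ADP/ATP carriers held 38.5% ± 5.54 of the summed FPKM with L-Asp and 35.9% ± 1.29 after heat stress (SD, n = 3 each), against 35.0% in control. Phosphate and proton carriers held 32.3% ± 3.49, 29.5% ± 2.38 and 32.2% in the same groups, and nucleotide and cofactor carriers held 21.9% ± 2.75, 25.4% ± 2.12 and 25.0%. For each of these classes the L-Asp and heat stress libraries overlapped.

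**Figure D1:**
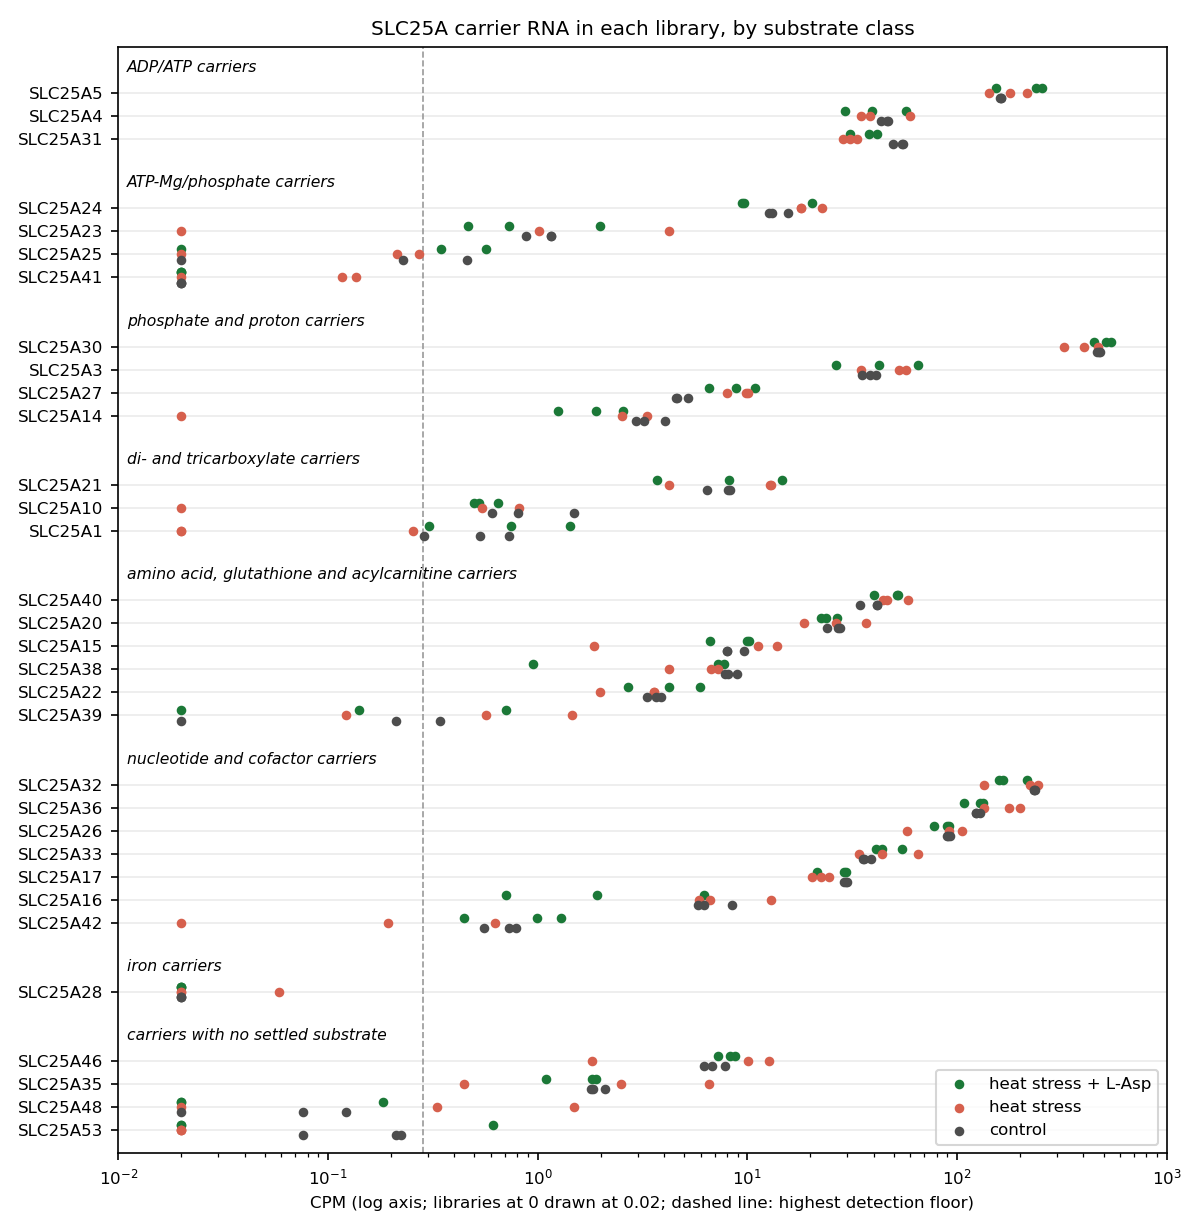
Each row is 1 reported carrier and each point 1 library, in CPM on a log axis, with heat stress plus L-Asp above heat stress and control. Genes are grouped by substrate class, libraries at 0 are drawn at 0.02 and the dashed line is the highest floor, 0.284 CPM. SLC25A30 lies at the top at 323 to 545 CPM, and SLC25A28 and SLC25A41 lie below the floor in all 9 libraries.

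**Figure D2:**
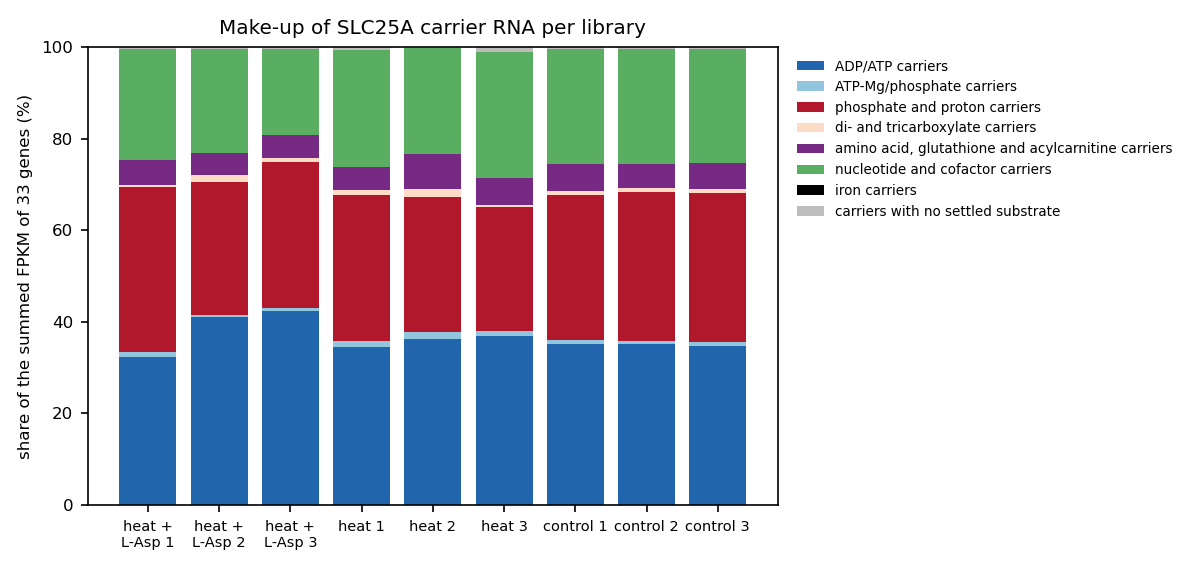
Each bar is 1 library, divided by the share of each substrate class in the summed FPKM of the 33 genes, in percent. ADP/ATP carriers, phosphate and proton carriers, and nucleotide and cofactor carriers fill most of every bar, and ADP/ATP carriers reach 41.1% and 42.4% in L-Asp libraries 2 and 3.

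No carrier passed the test in any comparison. The quasi-likelihood test of edgeR, adjusted by Benjamini-Hochberg, was run on 15012 genes, 29 of the 33 carriers among them, and a call was an adjusted p under 0.05. It called 0 carriers and 0 genes (0%) for heat stress against control, for L-Asp against heat stress and for L-Asp against control. At an unadjusted p under 0.05 there were 1, 0 and 0 carriers in these comparisons, where 3.86%, 6.61% and 3.22% of all tested genes lay under it. DESeq2 called 0 carriers in each, against 1.13%, 0.934% and 0.386% of the genes it tested. With 1 control sample and 4 residual degrees of freedom, these counts do not show that carrier RNA was unchanged.

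Fold changes of the family lay on both sides of 0 in each comparison. For heat stress against control, 15 of 29 carriers had a log2 fold change above 0 (51.7%, against 50.1% of all tested genes), with a median of 0.06 where the median of all tested genes was 0.0016. For L-Asp against heat stress, 11 of 29 lay above 0 (37.9%, against 49.0%), with a median of -0.04. For L-Asp against control, 15 of 29 lay above 0 (51.7%, against 50.5%), with a median of 0.0093. The sign of these small medians hung on single libraries: it turned to -0.0034, -0.11 or -0.23 for heat stress against control without control replicate 2 or heat stress replicate 1 or 3. It turned to 0.08, 0.11 or 0.06 for L-Asp against heat stress without heat stress replicate 1 or 3 or L-Asp replicate 3, and to -0.02 or -0.04 for L-Asp against control without control replicate 2 or L-Asp replicate 1. Among the 13 carriers of at least 10 CPM, log2 fold changes ran from -0.78 to 0.51 for heat stress against control, from -0.58 to 0.33 for L-Asp against heat stress and from -0.53 to 0.41 for L-Asp against control. For heat stress against control, all 3 heat stress libraries lay on 1 side of control for 6 of these 13 (46.2%, against 45% of all genes at that level). For L-Asp against control this held for 4 of 13 (30.8%, against 51.6%). L-Asp and heat stress libraries did not overlap for 2 of the 29 tested carriers (6.90%, against 11.9%).

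**Figure D3:**
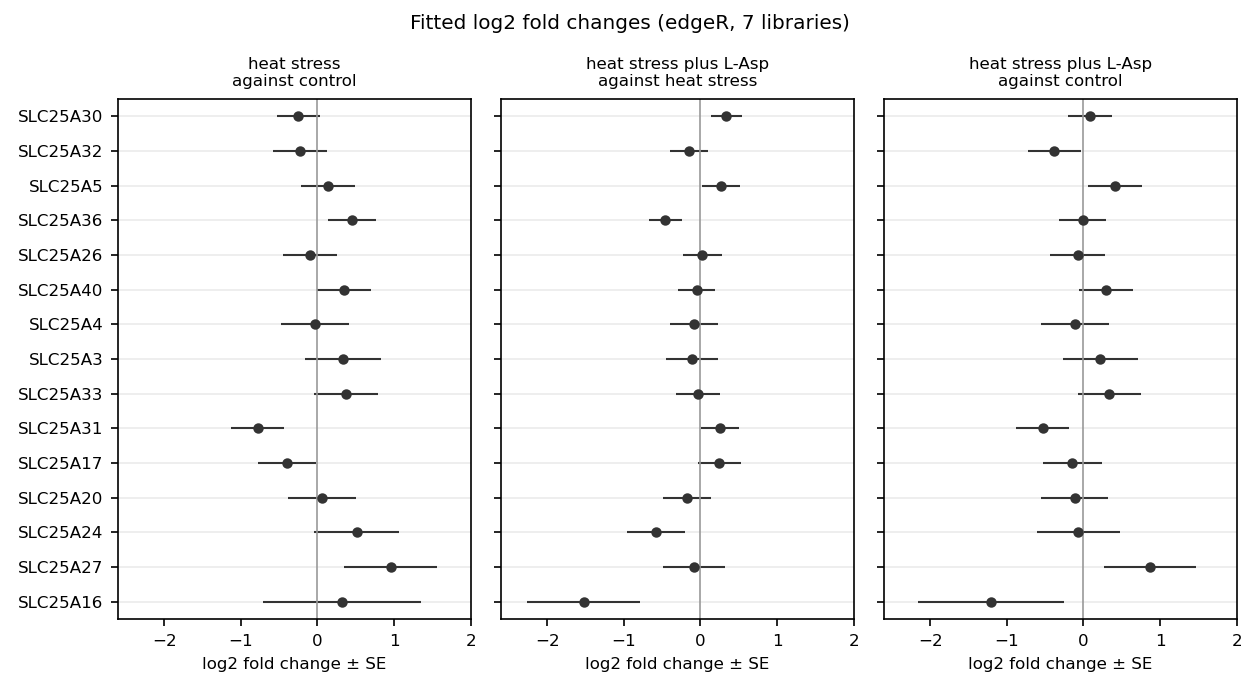
Points are fitted log2 fold changes of the 13 carriers of at least 10 CPM, and of SLC25A27 and SLC25A16, in the 3 comparisons, and lines are ± 1 SE. SLC25A31 lies at -0.78 for heat stress against control and at -0.53 for L-Asp against control, and SLC25A16 at -1.53 for L-Asp against heat stress.

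ADP/ATP carriers exchange ATP made in the matrix for cytosolic ADP. SLC25A5, also called ANT2, is the form of dividing and many other cells, SLC25A4 that of heart and muscle, and SLC25A31 the germ cell form, which male mice need to make sperm. SLC25A31 had the smallest p of the family for heat against control. SLC25A31 (ENSSSCG00000009078, chromosome 8, 97095517 to 97120250, minus strand) measured 33.4, 28.5 and 30.9 CPM in the 3 heat stress libraries, against 55.4, 54.5 and 49.7 CPM in the 3 control libraries. All heat stress libraries thus lay below all control libraries. The mean was 30.9 ± 2.44 CPM after heat stress (SD, n = 3) and 53.1 CPM in control, a log2 fold change of -0.78 ± 0.34 (SE), which did not pass (edgeR, adjusted p = 1, unadjusted p = 0.0419). Of the 13 carriers of at least 10 CPM it was the 1 whose heat stress libraries all differed from control by more than 1.5-fold, as did 6.82% of all genes at that level.

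With L-Asp, SLC25A31 measured 30.8, 41.7 and 37.97 CPM. These libraries also lay below every control library, and they overlapped those of heat stress. All L-Asp libraries lay on 1 side of the averaged control for 51.6% of all genes of at least 10 CPM. The mean of SLC25A31 with L-Asp was 36.8 ± 5.56 CPM (SD, n = 3). Its log2 fold change was -0.53 ± 0.34 (SE) against control, with an unadjusted p of 0.152 and an adjusted p of 1 by edgeR. When all 9 libraries were taken as replicates, SLC25A31 was the only carrier called for heat stress against control (edgeR, adjusted p = 0.0439), in a fit that called 2.88% of all genes and 1.13% as lower. That fit treats the 3 nearly identical control libraries as independent. Without heat stress replicate 2 the unadjusted p for heat stress against control was 0.0811.

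SLC25A5 (ENSSSCG00000012623, chromosome X, 97919290 to 97922239, plus strand) was the most abundant of them. It measured 153.5, 238 and 255 CPM with L-Asp and 180, 142 and 215 CPM after heat stress, against 160.5, 163 and 163 CPM in control. L-Asp replicate 1 and heat stress replicate 2 lay below control and the other 4 heated libraries above it. The log2 fold change for L-Asp against control was 0.41 ± 0.36 (SE), which did not pass (edgeR, adjusted p = 1). SLC25A4 measured 29.2, 57.3 and 39.3 CPM with L-Asp and 59.6, 34.9 and 38.6 CPM after heat stress, against 46.8, 46.3 and 43.3 CPM in control. Its heated libraries fell on both sides of control.

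Set beside each other within a library, the isoforms do not depend on the scaling between libraries. By FPKM, SLC25A31 made up 11.6%, 10.2% and 8.98% of the RNA of these isoforms in the L-Asp libraries and 10.5%, 11.4% and 8.64% in the heat stress libraries, against 18.0%, 17.6% and 16.4% in control. The 6 heated libraries lay together, below every control library. SLC25A5 made up 84.9% ± 1.9 with L-Asp and 83.6% ± 2.77 after heat stress (SD, n = 3 each), against 76.3% in control. From counts, the share of SLC25A31 was 11.4% to 14.4% with L-Asp and 10.9% to 13.8% after heat stress, against 19.4% to 21.1% in control. No test is given for these shares, as the control counts as 1 sample. The oocyte marker sums given above, of which BTG4 was a large part, were also lower in each of the 6 heated libraries. Their part in the difference was not tested. Closely related copies of ADP/ATP carrier genes can share reads, and how such reads were counted is not stated in the labels or the table.

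**Figure D4:**
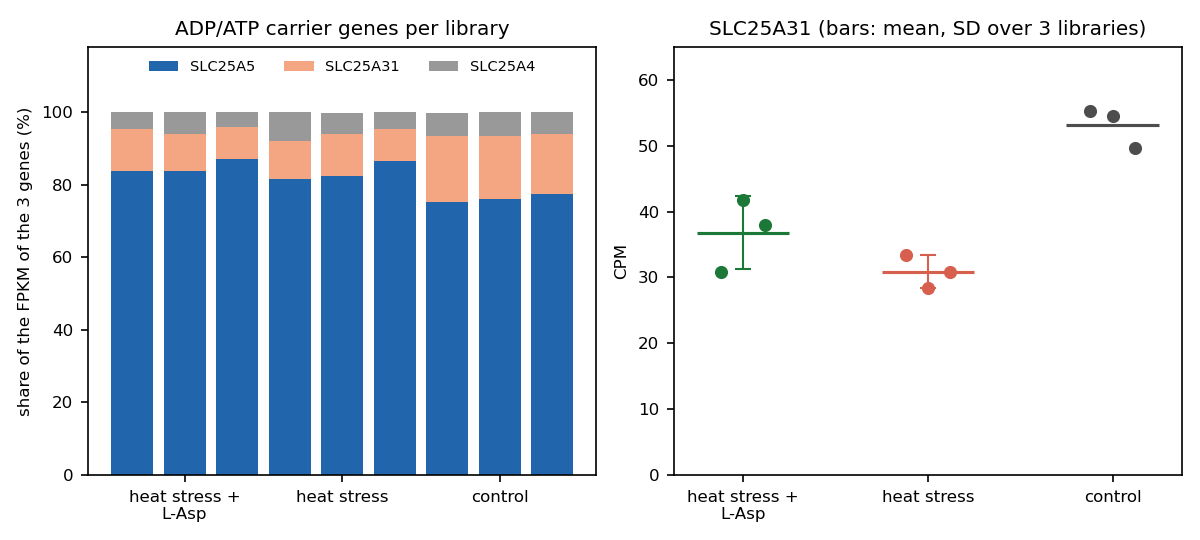
Left, the share of each ADP/ATP carrier gene in their summed FPKM, in percent, with 1 bar per library. Right, SLC25A31 in CPM, with 1 point per library, the mean as a line and the SD over 3 libraries for both heated groups. SLC25A31 takes 8.64% to 11.6% in the 6 heated libraries and 16.4% to 18.0% in control.

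Among phosphate and proton carriers, SLC25A30 had the highest mean CPM in every group among the 33 genes. It is the kidney mitochondrial carrier protein, a relative of the uncoupling proteins, and these data do not show its substrate. By FPKM it held 25.9% to 27.6% of the sum of the 33 genes with L-Asp and 21.1% to 25.6% after heat stress, against 27.0% to 27.6% in control. The share of its class thus rests mostly on this gene. SLC25A30 (ENSSSCG00000062876, chromosome 11, 21848941 to 21865590, minus strand) measured 451, 514 and 545 CPM with L-Asp and 469, 323 and 406 CPM after heat stress, against 467, 477 and 480 CPM in control. Its averaged control CPM exceeded that of 97.7% of all tested genes. The L-Asp and heat stress libraries overlapped at 451 and 469 CPM. The means were 503 ± 48.1 and 399 ± 73.0 CPM (SD, n = 3 each), a log2 fold change of 0.33 ± 0.20 (SE) for L-Asp against heat stress (edgeR, adjusted p = 0.768). Without heat stress replicate 2, its lowest library, the fold change was 0.20. Per length it stood close to SLC25A5. SLC25A30 had 115 ± 10.0 FPKM with L-Asp and 92.2 ± 12.1 FPKM after heat stress, against 99.2 FPKM in control. SLC25A5 had 141 ± 34.6, 118.3 ± 16.3 and 97.2 FPKM in the same groups. Within a library, SLC25A30 over SLC25A5 was 1.024, 0.753 and 0.745 with L-Asp and 0.909, 0.792 and 0.658 after heat stress. In control it was 1.015, 1.022 and 1.026. SLC25A5 was thus the higher in every heat stress library, and SLC25A30 narrowly in every control library. The L-Asp libraries were mixed, and no test is given for this ratio.

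SLC25A3, which imports phosphate and also copper, measured 65.4, 26.4 and 42.3 CPM with L-Asp and 52.96, 34.8 and 57.2 CPM after heat stress, against 35.1, 41.3 and 38.6 CPM in control. Both heated groups spread to either side of control. Its log2 fold change for heat stress against control was 0.33 ± 0.49 (SE) and did not pass (edgeR, adjusted p = 1). SLC25A27 and SLC25A14, relatives of the uncoupling proteins known mainly from brain, were much rarer. SLC25A27 measured 10.9, 8.83 and 6.58 CPM with L-Asp and 9.86, 8.003 and 10.1 CPM after heat stress, against 4.55, 5.20 and 4.62 CPM in control. All 6 heated libraries lay above all control libraries. The log2 fold change was 0.96 ± 0.61 (SE) for heat stress against control and 0.87 ± 0.60 (SE) for L-Asp against control, and neither passed (edgeR, adjusted p = 1 for each). SLC25A27 was singled out after its values were seen. Of the 29 tested carriers it was the 1 (3.45%, against 5.85% of all tested genes) whose heat stress libraries all lay more than 1.5-fold above control. SLC25A14 had 1.255 to 2.565 CPM with L-Asp and 0 to 3.32 CPM after heat stress, against 2.93 to 4.06 CPM in control.

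Nucleotide and cofactor carriers formed the largest class, with 8 genes. SLC25A36 and SLC25A33 carry pyrimidine nucleotides into mitochondria. SLC25A36 (ENSSSCG00000036855, chromosome 13, 81750031 to 81791891, plus strand) measured 129, 134 and 109 CPM with L-Asp, 199, 135 and 177 CPM after heat stress, and 129, 123 and 123 CPM in control. Heat stress libraries lay above all others, with a narrow gap between 135 CPM in heat stress replicate 2 and 134 CPM in L-Asp replicate 2. The means were 124 ± 13.4 CPM with L-Asp and 170.4 ± 32.7 CPM after heat stress (SD, n = 3 each), a log2 fold change of -0.46 ± 0.22 (SE) that did not pass (edgeR, adjusted p = 0.738, unadjusted p = 0.0555). For heat stress against control it was 0.45 ± 0.31 (SE), also not called (edgeR, adjusted p = 1). These comparisons share the heat stress libraries. SLC25A36 was the 1 carrier of at least 10 CPM whose L-Asp and heat stress libraries did not overlap, 7.69% of 13, against 13.4% of all genes at that level. SLC25A33 measured 43.9, 54.7 and 41.2 CPM with L-Asp and 43.8, 33.9 and 65.5 CPM after heat stress, against 36.04, 38.8 and 35.7 CPM in control. Its log2 fold change was 0.37 ± 0.42 (SE) for heat stress against control, where it was 0.07 without heat stress replicate 3, and 0.34 ± 0.41 (SE) for L-Asp against control, where it was 0.22 without L-Asp replicate 2. Neither passed (edgeR, adjusted p = 1 for each).

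SLC25A32, which carries folate and FAD, measured 165, 216 and 159 CPM with L-Asp and 223, 135 and 243 CPM after heat stress, against 233, 236 and 234 CPM in control. All L-Asp libraries lay below control, whereas heat stress replicate 3 lay above it. The log2 fold change for L-Asp against control was -0.38 ± 0.35 (SE) and did not pass (edgeR, adjusted p = 1). SLC25A26, the S-adenosylmethionine carrier that supplies methyl groups to mitochondria, measured 91.9, 89.6 and 77.7 CPM with L-Asp and 91.7, 57.85 and 105 CPM after heat stress, against 91.1, 89.9 and 92.3 CPM in control. Heat stress replicate 2 lay below the other 8 libraries. It overlaps the gene LRIG1 on the other strand, and the library preparation does not mark strand. SLC25A17, a carrier of peroxisomes, measured 28.9, 21.6 and 29.5 CPM with L-Asp and 24.4, 20.4 and 22.5 CPM after heat stress, against 29.6, 29.1 and 29.8 CPM in control. Its heat stress libraries lay below control, which was noticed after its values were seen, with a log2 fold change of -0.39 ± 0.38 (SE) that did not pass (edgeR, adjusted p = 1).

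SLC25A16, linked to coenzyme A, had the lowest log2 fold change for L-Asp against heat stress among the 23 carriers of at least 1 CPM. It measured 0.709, 1.92 and 6.22 CPM with L-Asp and 12.9, 6.66 and 5.91 CPM after heat stress, against 8.42, 5.83 and 6.23 CPM in control. L-Asp replicate 3 lay among the heat stress libraries, so the groups overlapped. The log2 fold change was -1.53 ± 0.73 (SE) against heat stress (edgeR, adjusted p = 0.738, unadjusted p = 0.0617) and -1.21 ± 0.96 (SE) against control (edgeR, adjusted p = 1). Without L-Asp replicate 3 these were -2.69 and -2.37, and without L-Asp replicate 1 they were -1.06 and -0.74. SLC25A16 was chosen for this account after its values were seen, and it overlaps the gene DNA2 on the same strand. SLC25A42, another coenzyme A carrier, had 0.446 to 1.29 CPM with L-Asp and 0 to 0.628 CPM after heat stress, against 0.553 to 0.789 CPM in control.

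**Figure D5:**
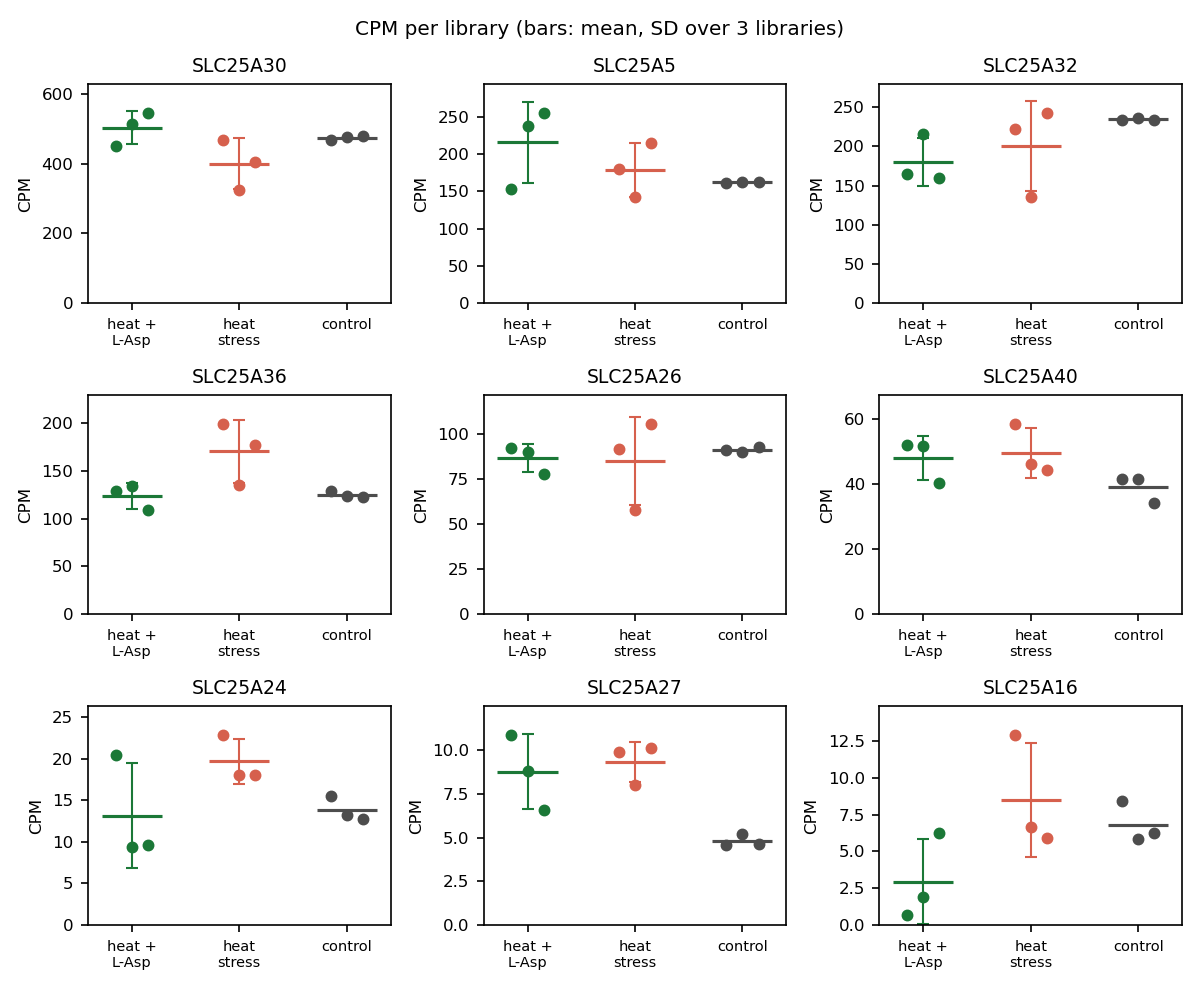
Each panel is 1 carrier, with CPM on an axis from 0, 1 point per library, the mean as a line and the SD over 3 libraries for both heated groups. SLC25A36 is high in heat stress (135 to 199 CPM), SLC25A27 is higher in all 6 heated libraries than in control, and SLC25A16 is low in L-Asp replicates 1 and 2.

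The carriers of amino acids, glutathione and acylcarnitine included 2 genes above 10 CPM. SLC25A40, which imports glutathione, measured 52.2, 51.8 and 40.4 CPM with L-Asp and 58.6, 46.2 and 44.5 CPM after heat stress, against 41.6, 41.6 and 34.3 CPM in control. Heat stress libraries lay above control, with a log2 fold change of 0.35 ± 0.35 (SE) that did not pass (edgeR, adjusted p = 1). Its relative SLC25A39, with the same substrate, was near the floor at 0 to 0.709 CPM with L-Asp and 0.121 to 1.46 CPM after heat stress, against 0 to 0.343 CPM in control. Per length, SLC25A40 had 4.16 to 5.47 FPKM with L-Asp and 4.47 to 6.01 FPKM after heat stress, against 3.29 to 3.97 FPKM in control, and SLC25A39 had at most 0.747 FPKM in any library. SLC25A20, the carnitine/acylcarnitine carrier, measured 22.5 to 26.8 CPM with L-Asp and 18.6 to 37.0 CPM after heat stress, against 24.1 to 27.7 CPM in control.

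The rarer amino acid carriers varied widely between heated libraries. SLC25A15, the ornithine carrier, measured 6.63 to 10.2 CPM with L-Asp and 1.87 to 13.8 CPM after heat stress, against 7.97 to 9.70 CPM in control. SLC25A38, which supplies glycine for haem synthesis, measured 0.952 to 7.72 CPM with L-Asp and 4.22 to 7.27 CPM after heat stress, against 7.80 to 8.88 CPM in control. SLC25A22, a glutamate carrier, measured 2.69 to 5.94 CPM with L-Asp and 1.98 to 3.597 CPM after heat stress, against 3.33 to 3.89 CPM in control.

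ATP-Mg/phosphate carriers, most of them regulated by calcium, adjust the adenine nucleotide content of the matrix, and SLC25A24 was the most abundant of these 4 genes. It measured 20.4, 9.39 and 9.63 CPM with L-Asp and 22.8, 18.1 and 18.1 CPM after heat stress, against 15.6, 13.2 and 12.7 CPM in control. All heat stress libraries lay above control, and L-Asp replicate 1 lay among them. The log2 fold change was 0.51 ± 0.56 (SE) for heat stress against control and -0.58 ± 0.38 (SE) for L-Asp against heat stress, and neither passed (edgeR, adjusted p = 1 and 0.792). Without L-Asp replicate 1 the second was -1.05, and without L-Asp replicate 2 it was -0.37. SLC25A23 lay at 0 to 4.23 CPM and SLC25A25 at 0 to 0.568 CPM over the 9 libraries. SLC25A41 lies next to SLC25A23 in the table's coordinates on chromosome 2 (72647470 to 72655473, after 72625583 to 72641791, both on the plus strand) and had 7 and 6 counts in heat stress replicates 2 and 3 and 0 in the other 7 libraries, below the floor.

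Carriers of di- and tricarboxylates were rare in all groups. SLC25A21, the oxodicarboxylate carrier, was the most abundant at 3.73, 14.6 and 8.21 CPM with L-Asp and 13.02, 12.8 and 4.22 CPM after heat stress, against 8.095, 6.44 and 8.23 CPM in control. It overlaps 2 other genes of the table. SLC25A1, which exports citrate for fatty acid synthesis, had 15, 37 and 60 counts in the L-Asp libraries and 0, 13 and 0 in the heat stress libraries, against 36, 28 and 15 in control. The counts with L-Asp and after heat stress did not overlap, and at about 4 counts per fragment they rest on few fragments. SLC25A1 too was singled out after its values were seen. SLC25A10, which exchanges dicarboxylates for phosphate, had 0.497 to 0.648 CPM with L-Asp and 0 to 0.817 CPM after heat stress, against 0.607 to 1.49 CPM in control.

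The 1 iron carrier, SLC25A28 (a mitoferrin), had 3 counts in heat stress replicate 2 and 0 in the other 8 libraries, below the floor. Among carriers with no settled substrate, SLC25A46, an outer membrane protein that shapes mitochondria, measured 8.25, 8.77 and 7.22 CPM with L-Asp and 12.7, 1.81 and 10.1 CPM after heat stress, against 6.76, 7.85 and 6.21 CPM in control. SLC25A35 measured 1.09 to 1.89 CPM with L-Asp and 0.448 to 6.53 CPM after heat stress, against 1.80 to 2.097 CPM in control. SLC25A48 reached 1.50 CPM in heat stress replicate 3 and was at 0 to 0.331 CPM in the other 8 libraries. SLC25A53 reached 0.615 CPM in L-Asp replicate 3 and was at 0 to 0.223 CPM elsewhere.

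Carriers differed in how steady they were. For the 13 genes of at least 10 CPM, the SD as a percentage of the mean had a median of 15.4% over L-Asp libraries and 20.2% over heat stress libraries. For the 10 genes between 1 and 10 CPM it was 36.2% and 59.8%. Heat stress replicate 2 had the lowest CPM of its group for 10 of the 13 abundant carriers, and the 33 carriers summed to 1097 CPM in it, against 1512 and 1554 CPM in the other heat stress libraries. Sums were 1329 to 1540 CPM with L-Asp and 1419 to 1432 CPM in control. The scaling factor of heat stress replicate 2 was 1.11, against 0.993 and 0.964 in heat stress replicates 1 and 3. A larger factor lowers the CPM of every gene in a library. Its part here was not tested, and the matching share over all genes is not given. The share of all counts from mitochondrial DNA was 5.30% to 9.47% with L-Asp and 3.09%, 5.18% and 14.5% in heat stress replicates 1, 2 and 3, against 10.04% to 10.13% in control. The part of the mitochondrial share in the carrier values was not tested.

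A further 4 genes carry no symbol and are described in the table as SLC25 members 2, 29, 37 and 51, so they fell outside the rule. The 1 described as member 51, which imports NAD (ENSSSCG00000032554), measured 393, 362 and 262 CPM with L-Asp and 522, 488 and 350 CPM after heat stress, against 320, 323 and 327 CPM in control. Its CPM thus exceeded that of every one of the 33 genes but SLC25A30. In heat stress replicates 1 and 2 it exceeded SLC25A30 too. It did not pass in any comparison (edgeR, adjusted p = 0.743 for L-Asp against heat stress and 1 for heat stress and for L-Asp against control). Those described as members 2, 29 and 37 reached at most 1.36 CPM in any library. The 1 described as member 37 was at 0.701 CPM in heat stress replicate 2, above the floor.

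Genes listed for protein import, including the route that inserts carriers, mostly had fold changes above 0 for heat stress against control. None was called, and not all of these genes serve carriers alone. Of 16 listed genes 13 were in the table and tested. For heat stress against control 11 lay above 0 (50.1% of all tested genes did) with a median log2 fold change of 0.65. For L-Asp against heat stress 4 lay above 0 (49% of all) with a median of -0.17, and for L-Asp against control 10 lay above 0 (50.5% of all) with a median of 0.45. edgeR called 0 of 13 in each. At an unadjusted p under 0.05, 1 was higher and 1 lower for heat stress against control, 0 for L-Asp against heat stress, and 1 lower for L-Asp against control, where 3.86%, 6.61% and 3.22% of all tested genes lay under it. TIMM10B, a small chaperone of the space between the membranes, measured 307 ± 40.03 CPM with L-Asp and 324 ± 92.4 CPM after heat stress (SD, n = 3 each), against 630.5 CPM in control (edgeR, adjusted p = 1 and 0.851 against control). TIMM8B, from the same chaperone family, measured 86.3 ± 20.1 and 114 ± 24.0 CPM in these heated groups, against 63.1 CPM in control. TOMM70, the outer membrane receptor for carriers, measured 60.4 ± 14.1 CPM with L-Asp and 87.3 ± 13.3 CPM after heat stress, against 71.2 CPM in control. TIMM13 measured 34.3 ± 1.23 and 32.5 ± 5.41 CPM, against 20.7 CPM in control.

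Other mitochondrial transporters, with symbols that do not start with SLC25A, gave no call either. They include UCP2 and MTCH1, which the rule by symbol left out of the family as described here. Of 25 listed genes 18 were tested, and 13, 7 and 8 lay above 0 for heat stress against control, for L-Asp against heat stress and for L-Asp against control, with medians of 0.30, -0.15 and -0.02, where 50.1%, 49% and 50.5% of all tested genes lay above 0. At an unadjusted p under 0.05 there were 0 in the first comparison, 1 higher in the second and 2 higher in the third (edgeR, 0 called), against 3.86%, 6.61% and 3.22% of all tested genes in either direction. MCUB, the inhibitory subunit of the mitochondrial calcium channel, measured 2208 ± 204 CPM with L-Asp and 1927 ± 594 CPM after heat stress (SD, n = 3 each), against 2839 CPM in control. SMDT1, a regulator of the same channel, measured 5.92 ± 1.58 and 9.26 ± 5.35 CPM, against 3.65 CPM in control. SFXN2, a sideroflexin, measured 27.4 ± 7.39 CPM with L-Asp and 15.2 ± 2.26 CPM after heat stress, against 12.03 CPM in control. All 3 L-Asp libraries (25.4, 35.6 and 21.3 CPM) lay above all heat stress libraries (15.1, 17.6 and 13.1 CPM), as 13.4% of all genes of at least 10 CPM did not overlap, with an adjusted p of 0.738 (edgeR). VDAC3, a pore of the outer membrane, measured 11.7 ± 4.53 and 19.98 ± 4.14 CPM, against 18.5 CPM in control.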

How the data were processed

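Counts and FPKM per library came from 1 deposited table of 23507 genes, per the file headers. The counts were whole numbers and entered the fits as deposited by the authors. The deposited FPKM served only to compare genes per length. Processing notes of the submitters name StringTie 2.1.6, cutadapt 1.9, HISAT2 2.2.1, edgeR and DESeq2, with no roles. Build and counting settings: not given in the sources used here. A further 6 columns of per-sample values were not used. Groups and replicate numbers came from the sample titles.

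Control counts were averaged and rounded to 1 library. Genes were filtered by filterByExpr on 9 libraries, scaled by TMM and tested with edgeR 4.0.16 (glmQLFit, robust; 1 mean per group; R 4.3.3), with p-values adjusted by Benjamini-Hochberg over 15012 genes. SE is the log2 fold change divided by the square root of F. Alternatives were DESeq2 1.42.0, other filters, scaling and library sets. The carriers, substrate classes and lists were chosen with earlier results of these data known, and no set test was run.

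Genes given per library were those of at least 10 CPM with groups apart (by 1.5-fold against control), the 10 of highest CPM and the top of each class; exceptions are stated in the text. Some genes of the family and the lists are counted but not reported here.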

Additional observations from a re-analysis of the deposited data

How the results depend on the processing

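Calls of carriers were the same under 49 of the 50 alternatives run over the 3 comparisons. With all 9 libraries as replicates 1 carrier, SLC25A31, was called for heat stress against control (edgeR, log2 fold change -0.78, adjusted p = 0.0439). That fit has more control samples and another estimate of the spread, and the cause of the call was not tested. Leaving out each library in turn gave 0 called carriers in each comparison, but these fits called at most 3 of 15012 genes. That count therefore says little about carriers. Family medians in these fits ran from -0.23 (without heat stress replicate 3) to 0.15 for heat stress against control. Of 330 alternative values for 20 fold changes of single carriers, 327 kept direction and call. These fold changes were those past a set size in the main fit among carriers of at least 10 CPM, and all those of SLC25A27 and SLC25A16. Values near 0 were thus mostly left out beforehand, and no carrier was called in the main fit. The 327 therefore says little about how steady the carriers are. SLC25A16 turned to -0.1145 for heat stress against control without heat stress replicate 1 (range over left-out libraries -0.1145 to 0.513), and SLC25A27 to 0.0791 for L-Asp against heat stress without L-Asp replicate 3 (range -0.2742 to 0.0791). The cause was not tested. Uncalled values also leaned on single libraries: SLC25A3 was 0.18 for heat stress against control without heat stress replicate 3, SLC25A40 0.21 without heat stress replicate 1, and SLC25A5 0.27 for L-Asp against control without L-Asp replicate 3.

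Deviations of same-numbered heat stress and L-Asp libraries correlated at 0.138, -0.0384 and 0.0356. The first was the highest of all pairs across groups, and not every library correlated best with its own number. Deviations from the mean of so few libraries are tied to each other, so this cannot decide whether the numbers pair the samples. With the replicate block on 9 libraries 0 carriers were called (SLC25A31, smallest adjusted p 0.0794), and 378 genes were called against 433 without it for heat stress against control. With the block on the 6 heated libraries 0 carriers and 0 genes were called. By FPKM in place of CPM, SLC25A5 ranked 1, SLC25A30 2, SLC25A31 6 and SLC25A36 8, against 3, 1, 10 and 4. The share of SLC25A31 by counts, an alternative added after seeing the data, was 12.7% with L-Asp and 12.3% after heat stress, against 20.4% in control. Depth limits the 10 carriers below 1 CPM, and those at 0 in a group.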
